A study of Mus musculus with 7 samples.

Results

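Sugar transport, fructolysis and gluconeogenesis in the ileum were followed through 8 genes: Slc5a1, Slc2a2, Slc2a5, Khk, G6pc, Slc37a4, Fbp1 and Pck1. They were found as the probe sets whose platform annotation named one of these genes and no other, which gave 11 probe sets for the 8 genes, of 34945 probe sets for 18193 genes on the array. All 8 genes passed the filter on low values and were tested among 13644 genes. Total RNA was taken from the terminal ileum (the far end of the small bowel) of C57BL6J males at 8 weeks of age, labelled with biotin and hybridised to 7 Affymetrix arrays. In the penicillin group 4 mice had been given penicillin at 6.7 mg/L, a low dose, from birth. In the control group 3 mice had been given no antibiotic. Both groups were weaned onto normal chow at 4 weeks and switched at 6 weeks to food in which fat supplied 45% of the calories. The labels name no litter or cage, so litter or cage and penicillin cannot be told apart. Values are log2 expression values made by RMA, on which a difference of 1 is a doubling, and differences are given as penicillin minus control.

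Dietary sugars cross the enterocyte, the absorptive cell of the gut lining, in steps that these genes serve. Glucose and galactose enter from the lumen with sodium through SGLT1, the product of Slc5a1, and fructose enters through GLUT5, the product of Slc2a5. Both kinds of sugar can leave on the blood side through GLUT2, the product of Slc2a2. Khk encodes ketohexokinase, which phosphorylates fructose and starts its breakdown, or fructolysis, much of which takes place in the small intestine before fructose reaches the liver. The remaining 4 genes serve gluconeogenesis, the making of glucose from smaller molecules. Pck1 encodes the cytosolic phosphoenolpyruvate carboxykinase and Fbp1 a fructose bisphosphatase. G6pc encodes the catalytic subunit of glucose-6-phosphatase, which releases free glucose inside the endoplasmic reticulum, and Slc37a4 the transporter that brings its substrate there.

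None of the 8 genes passed the test between penicillin and control mice, in limma with a Benjamini-Hochberg adjusted p under 0.05 over all genes. Over all genes tested 13 passed, or 0.0953%. At an unadjusted limma p under 0.05 there were 0 of the 8 genes, against 10.7% of all genes. In none of the 8 did the values of the groups lie apart without overlap, against 10.3% of all genes. All 8 mean values were higher in penicillin mice, with a median difference of 0.23 and a range from 0.09 to 0.58, while 45.3% of all genes had a higher mean value and the median over all genes was -0.01. With control replicate 1 or 2 or penicillin replicate 3 left out, 7 of the 8 were higher. Of the single arrays, the common direction depended most on control replicate 3, in which 6 of the 8 genes had their lowest value. Without it 5 of the 8 were higher in penicillin mice, the median difference was 0.06, and limma called 0 of the 8, against 0.0586% of all genes. It also called 0 of the 8 with array quality weights, where 5.67% of all genes were called, and 0 of the 8 without control replicate 3 and penicillin replicate 3 together, against 0.0147%.

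The stretch upstream of the transcription start is shown for the pair of genes that control replicate 3 departed in most, Slc2a2 and G6pc, for Slc5a1, the main glucose importer, and for Pck1, which departed the other way. Each sequence, from RefSeq on GRCm38.p6, holds the 250 bases before the start of the gene. Capitals mark matches, on either strand, to 3 motifs: TATAAA (the core promoter box that binds TBP), CACGTG (E-box, bound by USF and by the sugar-responsive factor ChREBP) and TGACGT (a half-site of the cAMP response element).
Slc5a1 (GRCm38.p6, chr5:33103969-33104218, plus strand): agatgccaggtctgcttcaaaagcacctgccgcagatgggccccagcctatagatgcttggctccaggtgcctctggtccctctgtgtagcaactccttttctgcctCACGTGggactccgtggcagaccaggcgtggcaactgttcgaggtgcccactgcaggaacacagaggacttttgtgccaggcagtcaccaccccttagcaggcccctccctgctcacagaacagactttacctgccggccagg
Slc2a2 (GRCm38.p6, chr3:28697653-28697902, plus strand): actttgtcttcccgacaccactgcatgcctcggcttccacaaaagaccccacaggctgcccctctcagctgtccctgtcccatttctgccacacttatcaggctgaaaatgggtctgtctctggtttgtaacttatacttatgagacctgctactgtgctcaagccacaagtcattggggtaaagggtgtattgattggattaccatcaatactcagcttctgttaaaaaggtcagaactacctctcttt
G6pc (GRCm38.p6, chr11:101367466-101367715, plus strand): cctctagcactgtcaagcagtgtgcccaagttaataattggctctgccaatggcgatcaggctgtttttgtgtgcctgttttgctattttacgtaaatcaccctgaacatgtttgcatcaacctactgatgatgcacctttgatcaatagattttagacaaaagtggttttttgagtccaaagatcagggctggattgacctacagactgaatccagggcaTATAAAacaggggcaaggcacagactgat
Pck1 (GRCm38.p6, chr2:173152823-173153072, plus strand): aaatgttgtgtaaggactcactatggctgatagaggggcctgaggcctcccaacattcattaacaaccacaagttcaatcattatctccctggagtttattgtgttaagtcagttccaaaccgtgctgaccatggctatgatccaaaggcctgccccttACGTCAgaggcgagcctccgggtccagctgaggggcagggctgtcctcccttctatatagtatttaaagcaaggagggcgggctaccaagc
The Slc5a1 window held 1 E-box and the Slc2a2 window none of the 3 motifs. The G6pc window held a TBP box that starts 29 bases before the gene. The Pck1 window held the cAMP response half-site on the reverse strand, and none of the marked matches overlapped. Over 32851 such windows of all genes, 12.4% held the TBP box, 6.02% the E-box and 6.47% the cAMP response half-site. All 8 genes matched the RefSeq table, with 10 windows in all, of which 3 were alternative starts of Slc37a4. The E-box was found upstream of 2 genes (Slc5a1 and Khk), the cAMP response half-site upstream of 2 (Pck1 and Slc37a4) and the TBP box upstream of 2 (G6pc and Slc37a4). Counted by window, as the shares over all genes are, these were 2, 3 and 2 of the 10 windows. The matches are a description of these letters, and no motif was shared by all of the genes that were low in control replicate 3.

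Arrays correlated with r between 0.991 and 0.998 over the probe sets used, and precision is limited by having 7 of them. Control replicate 3 stood apart: on the first principal component, with 48.0% of the variance, it lay at -30.0, against -2.90 to 17.6 for the others, and penicillin replicate 3 lay at the other end. The enterocyte markers Fabp2, Lgals4 and Apoa1 and the ileal markers Fabp6, Slc51a and Slc51b were at 11.9 or above in every array. The tissue label names ileum, whereas the growth protocol mentions livers. Of 10 hepatocyte markers 6 passed the filter, with mean values over the 7 arrays of 13.05 for Apob, 11.28 for Cyp2e1, 9.76 for Apoc3, 8.88 for Ttr, 6.82 for Serpina1c and 6.76 for Alb. The other 4, Ahsg, Cyp7a1, Fgb and Hpx, lay under it, with means between 3.78 and 4.57. G6pc, Fbp1 and Pck1 are best known from liver. Of the markers of the exocrine pancreas 3 of 6 had probe sets, and their mean departed from its average by between -0.04 and 0.03 in any array. A bulk sample cannot tell fewer cells of a type from less RNA per cell.

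Among the transporters Slc5a1 was at 12.87, 12.91, 13.22 and 12.76 in penicillin replicates 1 to 4, against 13.04, 13.05 and 12.08 in control replicates 1 to 3. A single control array lay low, and the other 6 arrays lay between 12.76 and 13.22. The difference was 0.22 ± 0.24 (SE, 95% confidence interval -0.34 to 0.78, limma adjusted p = 0.726), smaller than the spread between control mice. The second probe set of Slc5a1 gave the same picture on a lower level, at 11.98 to 12.49 in penicillin mice and at 12.10, 12.17 and 11.31 in control mice, with a difference of 0.27 (adjusted p = 0.662 when each probe set was fitted on its own). Without control replicate 3 the sign turned and the interval narrowed, to -0.10 ± 0.12 (SE, -0.40 to 0.19). A change of SGLT1 transcript by log2 1 lay outside both intervals.

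Slc2a2, the GLUT2 gene, had the widest range of the 8 genes, 2.92 on the log2 scale. It was at 5.73, 5.96, 7.11 and 6.72 in penicillin mice, against 6.99, 6.24 and 4.19 in control mice. Both groups were spread out, and the lowest array was again control replicate 3. Its value lay under the filter level of 4.588, and set at that level it was at least 3.66-fold below the mean of the other 6. The difference was 0.57 ± 0.65 (SE, -0.93 to 2.08, limma adjusted p = 0.732), the widest interval of the 8 genes. Without control replicate 3 it was -0.24 ± 0.42 (SE, -1.23 to 0.76).

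Slc2a5, the fructose transporter gene, was at 7.87, 8.11, 8.88 and 8.15 in penicillin mice, against 8.09, 8.09 and 7.21 in control mice. Penicillin replicate 3 lay highest and control replicate 3 lowest, and the other 5 arrays lay close together. The difference was 0.45 ± 0.29 (SE, -0.22 to 1.13, limma adjusted p = 0.570). It was 0.16 without control replicate 3, and -0.05 without both of these arrays, an exclusion chosen after the data had been seen.

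**Figure D1:**
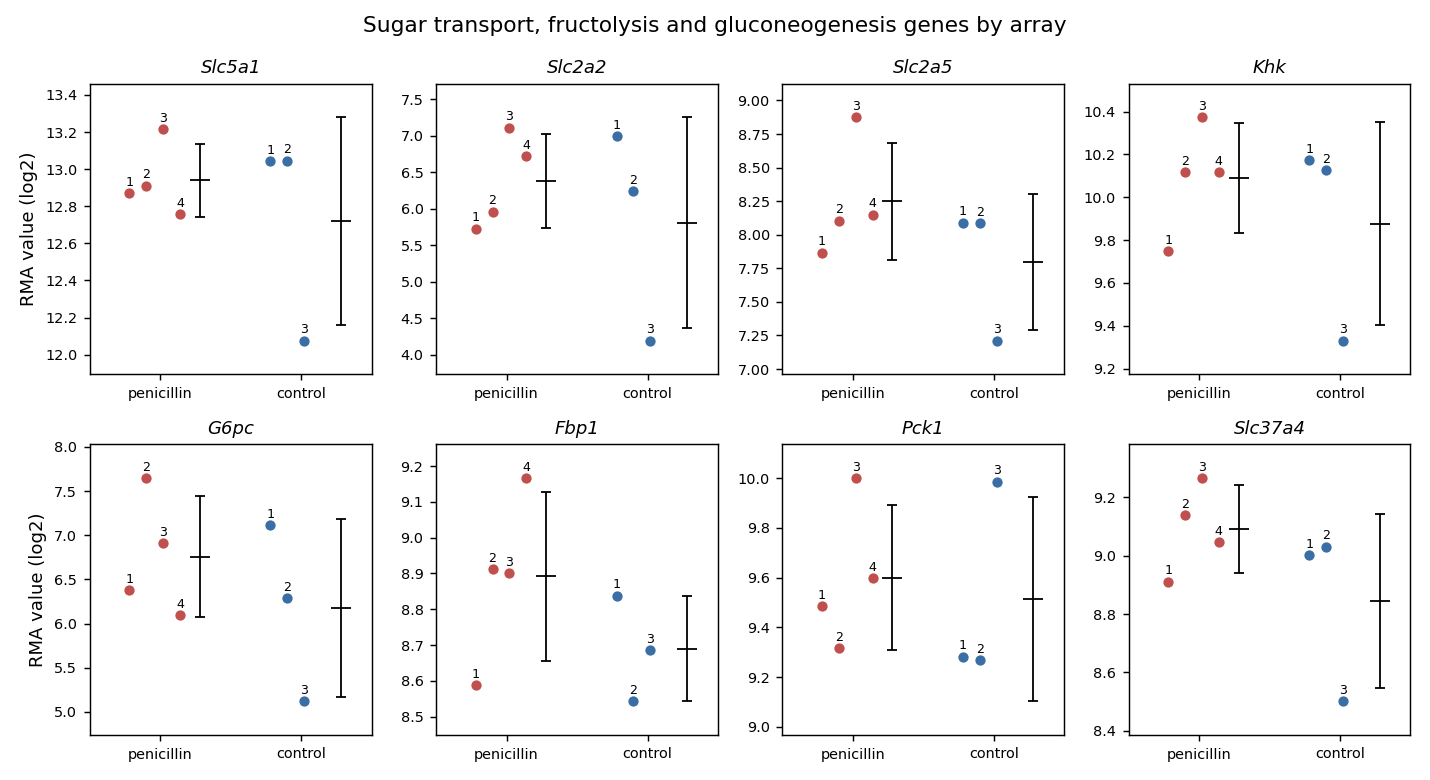
RMA values (log2, y axis, scaled per gene) of the 8 genes in each array, with penicillin mice in red at the left and control mice in blue at the right of each panel; digits are replicate numbers and black bars are mean ± SD (n = 4 and 3). Control replicate 3 is the lowest point for Slc5a1, Slc2a2, Slc2a5, Khk, G6pc and Slc37a4, whereas for Pck1 it lies with penicillin replicate 3 at the top.

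Khk, which commits fructose to metabolism in the cell, was at 9.75, 10.12, 10.37 and 10.12 in penicillin mice, against 10.17, 10.13 and 9.33 in control mice. Penicillin replicate 1 and control replicate 3 were the low arrays, and the groups overlapped. The difference was 0.21 ± 0.23 (SE, -0.31 to 0.74, limma adjusted p = 0.714), and -0.06 ± 0.16 (SE, -0.44 to 0.31) without control replicate 3. The Slc2a5 and Khk genes, whose products act one after the other on fructose, had the same lowest and the same highest array. Slc5a1, Slc2a2 and Slc37a4 shared both of these arrays, so the likeness was not particular to the fructose genes.

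G6pc was the most variable of the gluconeogenic genes. It was at 6.38, 7.65, 6.91 and 6.10 in penicillin mice, against 7.12, 6.29 and 5.12 in control mice. Its highest array was penicillin replicate 2, unlike that of the transporters, and its lowest was control replicate 3, 3.07-fold below the mean of the other 6. The difference of 0.58 ± 0.51 (SE, -0.61 to 1.77, limma adjusted p = 0.663) was the largest among the 8 genes and shrank to 0.05 without that array.

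Slc37a4, whose product works with glucose-6-phosphatase, varied less. Its values were 8.91, 9.14, 9.27 and 9.05 in penicillin mice, against 9.001, 9.03 and 8.50 in control mice. Apart from control replicate 3 the arrays lay between 8.91 and 9.27. The difference was 0.25 ± 0.14 (SE, -0.09 to 0.58), with the lowest adjusted p of the 8 genes (limma, 0.547), and 0.08 ± 0.10 (SE) without that array.

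Fbp1 was at 8.59, 8.91, 8.90 and 9.17 in penicillin mice, against 8.84, 8.54 and 8.69 in control mice. It was the gene least touched by control replicate 3, which differed from the mean of the other arrays by only -0.14. The difference was 0.20 ± 0.13 (SE, -0.11 to 0.51, limma adjusted p = 0.578) with all arrays and 0.20 ± 0.16 (SE) without control replicate 3. Here penicillin replicate 1 was the low array of its group, and without it the difference was 0.30 (limma, unadjusted p = 0.0279, adjusted p = 0.493).

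Pck1 was at 9.48, 9.32, 10.001 and 9.60 in penicillin mice, against 9.28, 9.27 and 9.99 in control mice. The high arrays were penicillin replicate 3 and control replicate 3, 1 in each group, and the other 2 control mice had the lowest values. The difference was 0.09 ± 0.22 (SE, -0.42 to 0.59, limma adjusted p = 0.885), and 0.32 ± 0.18 (SE, -0.09 to 0.74) without control replicate 3. A second probe set had the same 2 high arrays, at 6.40 in penicillin replicate 3 and 6.51 in control replicate 3, with a difference of 0.02. The third, at 2.96 to 3.37 in penicillin mice and 2.75 to 2.94 in control mice, lay near the bottom of the scale and did not pass the filter. It was the only one of the 11 probe sets whose groups did not overlap, against 10.3% of all genes, a share counted by gene and after the filter. Its lowest array was control replicate 3.

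**Figure D2:**
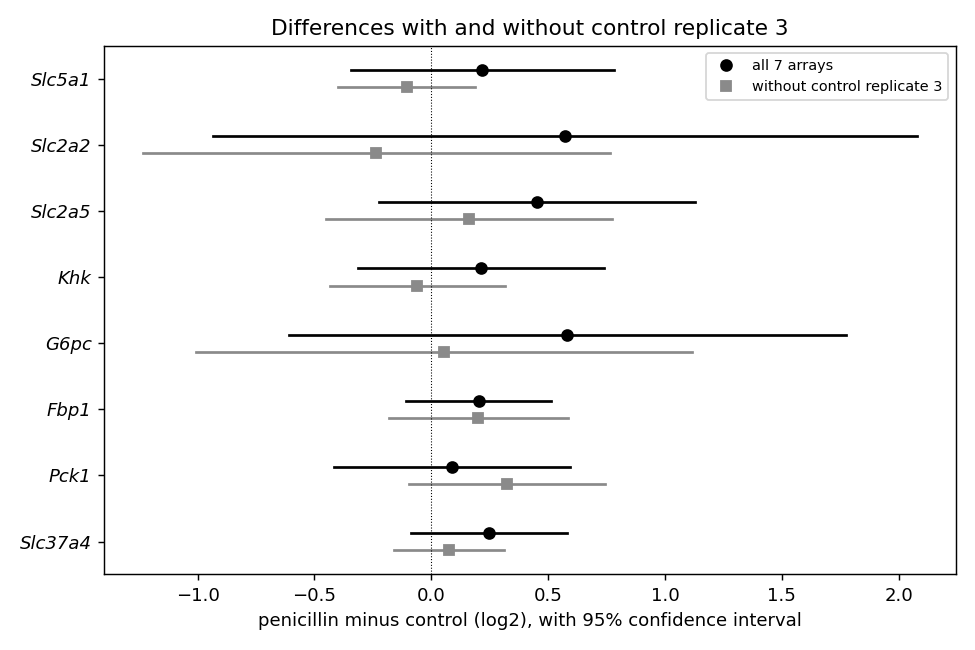
Difference between penicillin and control mice (log2, x axis) with its 95% confidence interval for each gene, from all 7 arrays (black circles) and without control replicate 3 (grey squares). All intervals include 0, and without that array Slc5a1, Slc2a2 and Khk lie left of 0 while Fbp1 stays at 0.20 and Pck1 moves to 0.32.

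The array-to-array pattern was shared by most of the 8 genes, and the groups overlapped in it. Its highest array was a penicillin mouse and its lowest a control mouse, and its relation to treatment was not tested. Control replicate 3 was lowest for 6 of the 8 genes, where it was lowest for 21.6% of all genes and highest for 30.3%. Penicillin replicate 3 was highest for 6 of the 8, where it was highest for 15.8% of all genes. For the 6 genes in which it was lowest, control replicate 3 lay at least 0.5 below the mean of the other arrays, as it did for 4.10% of all genes, with departures of -2.27 for Slc2a2 (or -1.87 with its value set at the filter level), -1.62 for G6pc, -0.98 for Slc2a5, -0.90 for Slc5a1, -0.78 for Khk and -0.57 for Slc37a4. For Pck1 the departure was 0.49, which 96.5% of genes did not exceed. Averaged over the 8 genes the arrays departed from the gene means by -0.17, 0.15, 0.47 and 0.09 in penicillin replicates 1 to 4, against 0.21, -0.03 and -0.72 in control replicates 1 to 3.

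**Figure D3:**
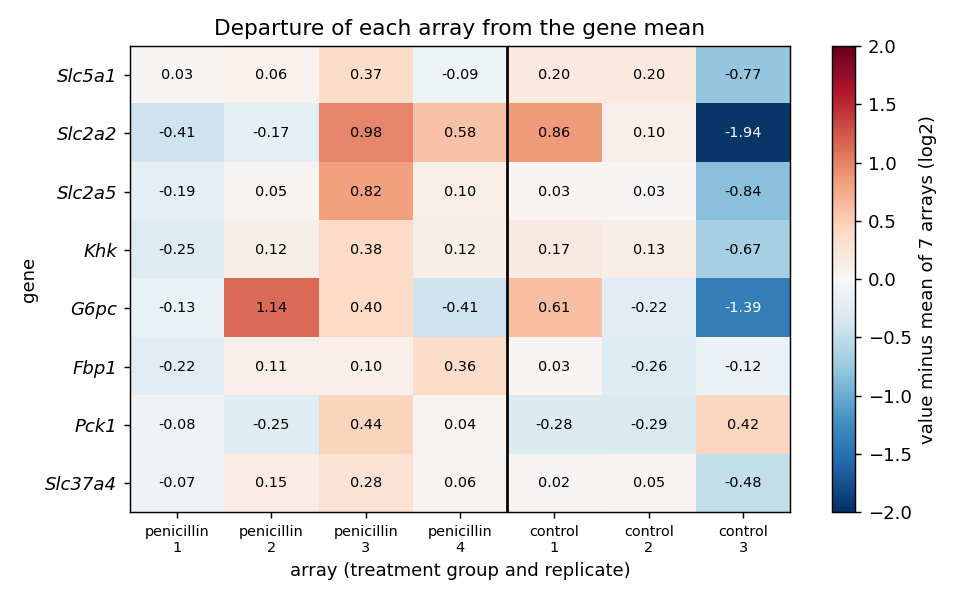
Departure of each array (columns, penicillin left of the line and control right of it) from the mean of the 7 arrays for each gene (rows), in log2 units, with red above and blue below the mean. The column of control replicate 3 is blue except for Pck1 at 0.42, and the column of penicillin replicate 3 is red throughout.

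Markers of several cell types moved with control replicate 3. Of the enterocyte markers 10 of 11 had probe sets, and 8 of these 10 were lowest in control replicate 3, where their mean departed by -0.58, against -0.05 to 0.27 in penicillin mice and -0.02 and 0.07 in the other control mice. Their summed level on the linear scale was 96280 to 108810 in penicillin mice and 71114 to 99248 in control mice. Alpi, the intestinal alkaline phosphatase of the brush border, which was picked with its values known, was at 12.36 to 12.75 in penicillin mice and at 12.18, 12.38 and 11.05 in control mice. Lgals4, a further epithelial gene, was at 14.21 to 14.24 in penicillin mice and 14.18 to 14.22 in control mice. Ileal markers were lowest in control replicate 3 for 4 of 5, with the sum at 36638 to 43540 in penicillin mice and 29493 to 41131 in control mice. The part of these shifts in the low values of the sugar genes was not tested.

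Of the colon markers 11 of 12 had probe sets and 3 were highest in control replicate 3, with sums of 6687 to 10659 in penicillin mice and 12740 to 28391 in control mice. A single listed gene, Saa1, a serum amyloid gene, carried much of the sums in control replicates 1 and 2. It was at 11.17, 8.47, 8.00 and 6.41 in penicillin mice, against 12.27, 12.61 and 11.61 in control mice. Without Saa1 the sums were 6332 to 8389 in penicillin mice, against 7794, 7333 and 25271 in control replicates 1 to 3. The high sum in control replicate 3 came mostly from a single gene, Car1, and was no shift of the whole list. Car1 and Aqp8, a carbonic anhydrase and a water channel of the colon, which like Saa1 were named after their values were seen, were at 14.10 and 8.27 in that array and at most at 10.82 and 4.29 in any other. Car4, Slc26a3 and Mettl7b, the brightest of the list, were not highest there. Hoxd10, also highest there, had a mean under the filter, as had Hoxb13 and Hoxd13, which were lowest there. Of the adipocyte markers 3 of 5 had probe sets, and all 3 were highest in control replicate 3, with sums of 7998 to 12260 in penicillin mice and 9817 to 19338 in control mice. Pck1 is also strongly expressed in fat cells, where it serves the making of glycerol for fat. Adipoq, which encodes a hormone of fat cells, was at 11.77, 11.07, 11.34 and 11.78 in penicillin mice, against 11.42, 11.54 and 12.81 in control mice, and Fabp4 was at 13.56 in control replicate 3, against 12.51 to 13.09 elsewhere. In penicillin replicate 3, where Pck1 was as high as in control replicate 3, the mean of the adipocyte markers departed by -0.10. Their part in the Pck1 values was not tested.

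**Figure D4:**
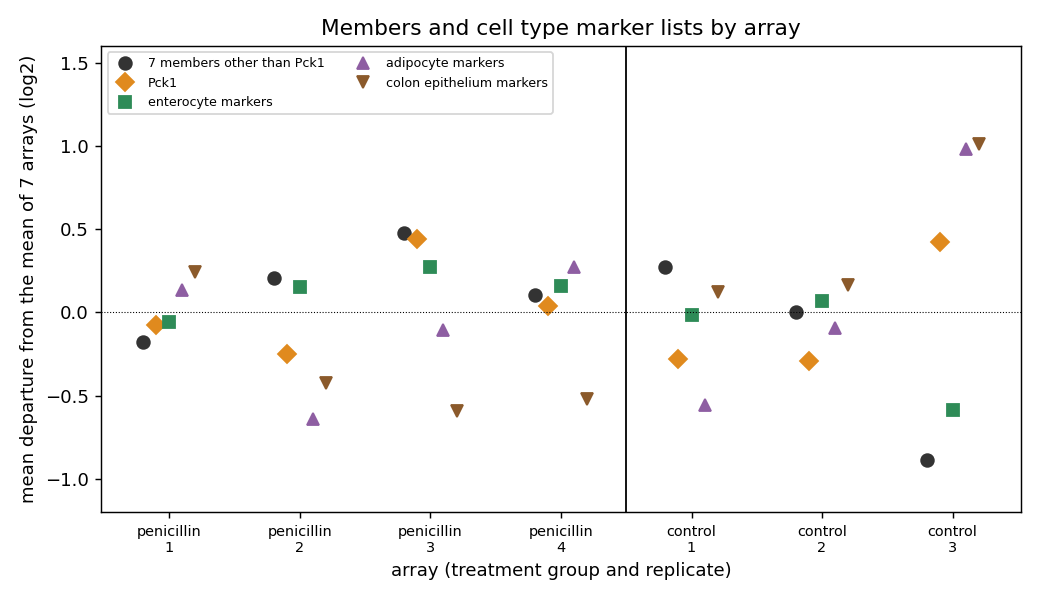
Mean departure from the mean of the 7 arrays (log2, y axis) in each array for the 7 genes other than Pck1, for Pck1 alone and for 3 marker lists. In control replicate 3 the 7 genes (-0.89) and the enterocyte markers (-0.58) lie below 0, and Pck1 (0.42), the adipocyte markers (0.98) and the colon markers (1.01) above it. Of the 11 colon markers 3 were highest in that array (Car1, Aqp8 and Hoxd10) and 2 were lowest, so the rise was not shared by the whole list.

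The remaining marker lists differed in other ways. Lymphocyte markers had lower means in penicillin mice for 8 of 8, with a median of -0.69 and sums of 3958 to 5782 in penicillin mice against 9716 to 9933 in control mice, and 2 of the 7 that passed the filter were called by limma, against 0.0953% of all genes. These were Ccl5, a chemokine gene (adjusted p = 0.0407), and Itgae, an integrin gene of intraepithelial lymphocytes that was picked with its values known (adjusted p = 0.0232). Each was called in 9 of 17 settings. Neither was called with the replicate block or without control replicate 1 or 2 or penicillin replicate 1, 3 or 4. The same held without control replicate 3 and penicillin replicate 3 together. Ccl5 was also not called without control replicate 3 (limma adjusted p = 0.0546), and Itgae not without penicillin replicate 2 (limma adjusted p = 0.0562). Their limma adjusted p over the settings went up to 0.211 for Ccl5 and 0.473 for Itgae. Jchain and Ptprc, the other bright genes of the list, differed by -1.0035 and -0.44 without a call. Smooth muscle markers had lower means for 6 of 6, with a median of -0.16, and Acta2, Tagln and Actg2 differed by -0.15, -0.19 and -0.03. Hepatocyte markers were higher for 8 of 10, with a median of 0.31 and sums of 12349 to 15604 in penicillin mice and 10591 to 13589 in control mice, and Apob and Apoc3, which enterocytes also make, were among them. Markers of the proximal small intestine were higher for 6 of 9, with sums of 2894 to 4932 in penicillin mice and 3339 to 4319 in control mice. Of its brightest genes Slc40a1 differed by -0.57, Gata6 by 0.13 and Fabp1 by 0.33. Lct, the lactase gene, named after its value was seen, was at 7.47 in penicillin replicate 3 and between 4.36 and 5.11 in the other arrays.

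The 5 genes whose values over the 7 arrays followed the mean of the 8 genes most closely were Limd1, Zmat4, Slc25a15, Ift20 and Mtf1, with Pearson correlations of 0.995, 0.992, 0.991, 0.986 and 0.985. Without control replicate 3 these were 0.983, 0.973, 0.971, 0.960 and 0.946. They are descriptions over 7 arrays that share the same libraries and were picked as the highest of 13644 genes, of which 3.02% had a correlation over 0.9. Slc25a15, a mitochondrial ornithine carrier, was at 11.26, 11.52, 11.68 and 11.42 in penicillin mice, against 11.50, 11.42 and 10.96 in control mice. None of the 5 passed between the groups (limma adjusted p from 0.624 to 0.741).

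Other genes of the pathway were read from 5 lists with 78 genes, of which 65 had a probe set of their own and 62 passed the filter. In limma none of the 62 passed, against 0.0953% of all genes, and 8 had an unadjusted p under 0.05, against 10.7% of all genes. The values of the groups did not overlap in 4 of the 62 genes that were higher and 3 that were lower, against 4.29% of all genes higher and 6.05% lower. The other 13 genes were not analysed here.

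Of 13 further sugar transporters tested 6 were higher and 7 lower in penicillin mice, with a median of -0.06. Slc5a4b, a transporter gene of the SGLT3 type, had the largest difference of the 62, at 6.01, 6.52, 8.42 and 7.09 in penicillin mice against 5.91, 5.85 and 4.31 in control mice. All penicillin mice were above all control mice, and penicillin replicate 3 and control replicate 3 were again the extremes. The value in control replicate 3 lay under the filter level of 4.588. The difference was 1.65 ± 0.61 (SE, limma adjusted p = 0.420). It was 1.13 without control replicate 3 (limma adjusted p = 0.55) and 1.18 without penicillin replicate 3 (limma adjusted p = 0.68). Its close relative Slc5a4a differed by 0.77 ± 0.41 (SE), with the same highest and lowest array. Cross-hybridisation between the pair was not tested.

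Slc5a11, a myo-inositol transporter, and Slc2a9, a urate transporter, differed by 0.42 and 0.39, or by 0.07 and 0.15 without control replicate 3. Slc2a1, which encodes GLUT1, was at 8.85 to 9.20 in penicillin mice and at 9.09, 8.98 and 9.84 in control mice. Control replicate 3 was thus the highest array for GLUT1 while it was the lowest for SGLT1, GLUT2 and GLUT5. The Slc2a1 difference was -0.26 ± 0.20 (SE, limma adjusted p = 0.619), and 0.01 without that array. Slc2a13, a myo-inositol transporter picked with its values known, was lower in all penicillin mice, by 0.22 ± 0.08 (SE, limma adjusted p = 0.420). The groups nearly touched, at 7.673 in penicillin replicate 1 and 7.675 in control replicate 2.

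Of the enzymes of fructose, sorbitol and galactose 7 of 12 were tested, and 6 were higher in penicillin mice, with a median of 0.22 and of 0.16 without control replicate 3. Pgm2, a phosphoglucomutase, was at 10.43, 10.52, 10.55 and 10.65 in penicillin mice, against 9.90, 10.41 and 9.94 in control mice. Control replicate 2 came close to the penicillin mice without overlapping them, and the difference was 0.46 ± 0.13 (SE, limma adjusted p = 0.308). Glyctk, glycerate kinase, which takes up a side branch of fructolysis, was at 5.94, 6.05, 6.26 and 5.83 in penicillin mice, against 5.73, 5.76 and 5.47 in control mice. It differed by 0.37 ± 0.12 (SE, limma adjusted p = 0.368), and its second probe set by 0.23. Ugp2, which makes UDP-glucose and was named after its value was seen, was also higher in every penicillin mouse, by 0.17 ± 0.06 (SE, limma adjusted p = 0.399). The other 4 probe sets of Ugp2 differed by 0.00 to 0.10. Tkfc, the triokinase that follows Khk in fructolysis, differed by 0.22 ± 0.13 (SE), or 0.09 without control replicate 3. Galm, a galactose mutarotase, differed by 0.23 ± 0.16 (SE), or 0.04 without it.

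Of the enzymes and carriers of triose, lactate and the shared gluconeogenic steps 20 of 25 were tested, 12 higher and 8 lower, all within -0.20 to 0.18 and with a median of 0.02. Pcx, pyruvate carboxylase, which feeds Pck1 with its substrate, was at 8.50, 8.18, 8.76 and 9.24 in penicillin mice, against 8.23, 8.86 and 8.94 in control mice, with a difference of -0.01 ± 0.27 (SE). Both groups were widely spread and overlapped. Fbp2, the second fructose bisphosphatase gene, differed by 0.18 ± 0.09 (SE), close to Fbp1. Without control replicate 3 it differed by 0.10, against 0.20 for Fbp1. Gpt and Gpd1 differed by 0.18 each, and by -0.12 and 0.05 without control replicate 3, and a second probe set of Gpt differed by -0.20. Got2, a mitochondrial aminotransferase, was at 10.21 to 10.42 in penicillin mice and 10.43 to 10.63 in control mice, and differed by -0.20 ± 0.08 (SE, limma adjusted p = 0.433).

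Of 19 regulators tested 11 were higher and 8 lower, with a median of 0.02. Mlxipl, which encodes ChREBP, the factor that responds to sugars, was at 9.72 to 9.92 in penicillin mice and 9.70 to 9.82 in control mice, a difference of 0.09 ± 0.07 (SE). Txnip, one of its targets, differed by 0.14 ± 0.08 (SE), and Hnf4a, a factor of liver and gut epithelium, by 0.05 ± 0.06 (SE). Mlxip, which encodes the relative of ChREBP called MondoA, was at 8.58, 8.59, 8.55 and 8.70 in penicillin mice, against 8.84, 8.75 and 8.91 in control mice. The groups did not overlap, and the difference was -0.23 ± 0.06 (SE, limma adjusted p = 0.308), or -0.19 without control replicate 3. Insr, the insulin receptor, and Tas1r3, a subunit of the sweet taste receptor, differed by 0.27 ± 0.11 and 0.24 ± 0.13 (SE). Creb3l3, a liver and gut factor released from the endoplasmic reticulum, differed by 0.50 ± 0.34 (SE) and by 0.20 without control replicate 3.

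The sodium pump keeps the gradient that drives SGLT1, and 3 of 4 of its listed genes were tested. Atp1b1, a beta subunit, was at 13.69 to 13.82 in penicillin mice and at 13.83, 13.73 and 13.50 in control mice, and differed by 0.05 ± 0.08 (SE). Atp1b3 differed by -0.12 ± 0.08 and Fxyd3 by 0.00 ± 0.07 (SE). The Atp1b3 difference was larger than the SD of the penicillin mice and smaller than that of the control mice.

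**Figure D5:**
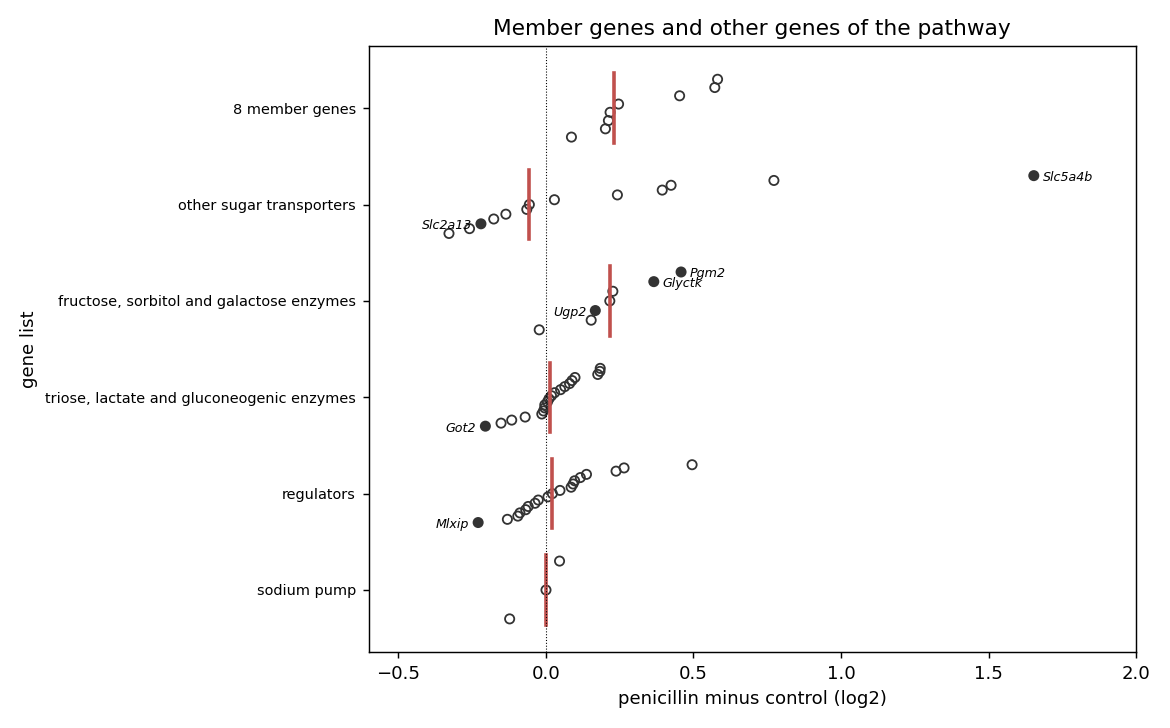
Difference between penicillin and control mice (log2, x axis) for each tested gene of the 6 lists (y axis), with red bars at the median of each list; filled and named points are genes whose groups did not overlap. Slc5a4b lies farthest out at 1.65, and the triose, lactate and gluconeogenic enzymes stay within -0.20 to 0.18.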

How the data were processed

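Expression was measured in 7 ileum samples, 4 penicillin and 3 control, grouped by their titles, which call them biological replicates. The deposited values are log2 RMA values per probe set, made by the authors. The submitters' processing notes name RMA and affy, and software versions are not given in the sources read. The values need no further scaling for comparison between arrays, but RMA gives no detection call and can compress differences at either end of the scale.

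Of 45101 probe sets, 34945 had 1 gene in the platform annotation and were no control, and 34741 of them matched RefSeq (GRCm38.p6) by gene ID. A gene was represented by its probe set with the highest mean, and genes at or under the 25th percentile of these means (log2 4.588) were left out. The 2 groups entered limma 3.58.1, run under R 4.3.3 (lmFit and eBayes, two-sided, Benjamini-Hochberg over 13644 genes, threshold 0.05). The fit was tested on simulated data. The alternatives were another normalization, filter, probe set rule, variance model, array weights, a replicate block and leaving out each array. Leaving out control replicate 3 and penicillin replicate 3 together was added after the data had been seen.

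The genes, lists and rules were chosen with earlier results of these data known. By rule the text names the 8 genes, up to 4 genes per pathway list by size of difference, Tkfc, Pcx, Mlxipl, Txnip, Slc2a1, Slc5a4b and Hnf4a, the 5 genes most like the 8, and up to 3 of the brightest genes of a marker list. A further gene under this rule is not reported here. The other marker genes named were picked with their values known. Plots used matplotlib 3.10.9 and Python 3.11.15.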

Additional observations from a re-analysis of the deposited data

How the results depend on the processing

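None of the 8 genes was called by limma in any of the 17 alternatives, and the lowest limma adjusted p among them lay between 0.369 and 0.790. Fbp1 without penicillin replicate 1 (limma, unadjusted p = 0.0279) and Slc5a1 without the pair of arrays named below passed an unadjusted threshold of 0.05. In these settings 9.4% and 10.6% of all genes passed it. Of 134 single-gene values under alternatives 120 kept their direction and 14 turned. With array quality weights, which called 774 genes in all, or 5.67%, Slc5a1 was at -0.083, Slc2a2 at -0.55, Khk at -0.0527 and G6pc at -0.023, and 4 of the pathway genes were called (Mlxip, Pgm2, Slc2a13 and Ugp2). Without control replicate 3 and penicillin replicate 3 together 2 genes were called in all, and Slc5a1 was at -0.20 (limma, unadjusted p = 0.0242, adjusted p = 0.386), Slc2a2 at -0.48, Slc2a5 at -0.0471 and Khk at -0.16. Leaving out single arrays gave from -0.10 to 0.38 for Slc5a1, from -0.24 to 1.17 for Slc2a2, from -0.0605 to 0.36 for Khk and from -0.0465 to 0.32 for Pck1, and 0 to 15 calls over all genes. The lowest values of Slc5a1, Slc2a2 and Khk came without control replicate 3, and that of Pck1 without penicillin replicate 3. Pck1 was also below 0 without control replicate 1 or 2, at -0.03 in both. With the mean of probe sets 7 genes were called. Deviations of same-numbered arrays correlated at -0.16, 0.00 and -0.42, and those of arrays with different numbers at -0.37 to 0.38. These ranges overlap, so the values cannot tell whether the replicate numbers pair the mice. With the replicate block limma called 0 genes, 803 had an unadjusted p under 0.05, and the median of the 8 genes was 0.27. With the filter at the 50th percentile 6 of the 8 genes were tested. The causes of these shifts were not tested. RMA values carry no counts, so signal over background could not be judged gene by gene, and Slc2a2 and G6pc lie lowest above the filter.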
